A study of Homo sapiens with 12 samples.

Results

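The GALNT genes encode the polypeptide N-acetylgalactosaminyltransferases, and 9 of them were named for this description of 22Rv1 cells depleted of CENPA, the histone H3 variant that marks centromeres. The set was chosen by a measured value, the log2 RPKM difference of GALNT14 between the CENPA knockdown and control libraries, so the values of GALNT14 are given as a description without a test. The other members entered as relatives of GALNT14. Of the 9 genes, 8 were found by gene symbol among the 14828 genes of the expression table and all 8 passed the filter on low values that left 14624 genes, and GALNT4 was not analysed here.

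22Rv1 is a human prostate carcinoma cell line. The cells carried a lentiviral, doxycycline-inducible shRNA vector selected with puromycin, with either a nontargeting shRNA (shNT, the control) or 1 of 2 shRNAs against CENPA (shCENPA1 and shCENPA2), and by the study's methods all 3 groups received doxycycline at 2 µg/ml for 72 h. Each shRNA was represented by 2 RNA-seq libraries, and each library was sequenced in lanes 7 and 8, whose mean was used as 1 replicate. Nothing in the labels says whether the 2 libraries came from separate cultures, so p-values measure the spread between these libraries only, which may be technical. The groups model an mRNA knockdown in pools of transduced cells of 1 cell line and not a deletion.

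Mucin-type O-glycosylation starts in the Golgi, where a GALNT enzyme moves N-acetylgalactosamine (GalNAc) from the sugar nucleotide UDP-GalNAc to a serine or threonine of a protein. The family is large because its members prefer different peptides. GALNT1, GALNT2, GALNT3 and GALNT11 act on bare peptides, whereas GALNT7 and GALNT10 prefer peptides that already carry a GalNAc and fill in neighbouring sites. C1GALT1 and other enzymes then extend the sugar, and sialyltransferases cap it. In prostate and other carcinomas, truncated mucin-type glycans such as the Tn and sialyl-Tn antigens are known as tumor-associated structures. GALNT14, a close relative of GALNT2, is known for glycosylating the death receptors that bind TRAIL.

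The genes lie apart from each other. On GRCh38 (hg38, the build of the deposited values), GENCODE 44 places GALNT14 on the minus strand of chromosome 2 from 30910467 to 31155202, GALNT3 on the same chromosome from 165747588 to 165794659, and GALNT10 on the plus strand of chromosome 5 from 154190730 to 154420984. The DNA before the starts of GALNT14 and of GALNT10 is shown because the first chose the set and the second was the only tested member that passed in both comparisons with shNT. The RefSeq table lists 2 starts for GALNT14 that are 8800 bp apart. The GENCODE gene reaches 31155202, upstream of both on the minus strand, and the DNA before that end is not shown. The deposited values, 1 per gene, cannot tell which start was used. For each RefSeq start, the 250 bases that precede it are printed 5′ to 3′ on the strand of the gene (RefSeq on GRCh38.p14), with every CG dinucleotide in capitals.
GALNT14 upper start, chr2:31138441-31138690, minus strand: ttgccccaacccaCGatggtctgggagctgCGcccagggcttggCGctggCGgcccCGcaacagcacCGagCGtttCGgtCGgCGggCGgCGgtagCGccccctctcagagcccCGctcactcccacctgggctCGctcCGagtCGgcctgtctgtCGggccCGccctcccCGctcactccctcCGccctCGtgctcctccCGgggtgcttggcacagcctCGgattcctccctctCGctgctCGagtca
GALNT14 lower start, chr2:31129641-31129890, minus strand: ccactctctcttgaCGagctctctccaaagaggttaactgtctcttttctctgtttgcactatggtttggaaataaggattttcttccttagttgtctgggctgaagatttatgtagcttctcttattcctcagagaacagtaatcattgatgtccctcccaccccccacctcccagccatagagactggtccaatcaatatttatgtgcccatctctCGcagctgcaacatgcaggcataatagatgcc
GALNT10, chr5:154190483-154190732, plus strand: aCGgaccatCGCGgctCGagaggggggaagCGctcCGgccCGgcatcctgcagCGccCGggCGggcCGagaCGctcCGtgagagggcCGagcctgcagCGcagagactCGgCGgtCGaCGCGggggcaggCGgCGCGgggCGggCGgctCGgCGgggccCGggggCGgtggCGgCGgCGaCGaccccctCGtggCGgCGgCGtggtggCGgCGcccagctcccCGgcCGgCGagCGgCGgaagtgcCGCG

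The upstream sequences differed in composition between the starts of GALNT14. The upper start of GALNT14 had 26 CG dinucleotides and 72.4% G and C, and the lower start had 2 CG dinucleotides and 45.2% G and C. GALNT10 had 46 CG dinucleotides and 82.4% G and C, against a median of 11 and 58% over 35116 RefSeq promoters of the same length. Short motifs were searched on both strands. The GC box letters GGGCGG stood 3 times at the upper start of GALNT14 and 4 times at GALNT10, and 42.6% of all promoters held them. The lower start of GALNT14 held the CCAAT letters once, as did 32.0% of all promoters, and the letters AGAACA of an androgen receptor half-site once, as did 12.4%. The TATA box letters TATAAA (10.7% of all promoters), the letters TTTGAA of the CHR element of cell cycle genes (13.3%) and the E2F-type letters TTTCCCGC, TTTGGCGC, TTTCGCGC and TTTGCCGC (2.79% for any of them) were in none of the 11 windows of the 8 members. A match describes the letters of the window and not a bound site.

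Reads on genes were 79172294 to 133074655 per library. A chi-square of the read counts, averaged over genes, came to 1.24 to 1.31 for pairs of lanes (1 would be pure counting noise) but to 26.5 to 80.1 for pairs of libraries that carried the same shRNA, so the number of libraries and not the depth limits most values below. The reads on CENPA numbered 1186 and 764 for shNT, dropping to 226 and 308 for shCENPA1 and to 118 and 201 for shCENPA2, which follows the labels. Markers of luminal prostate epithelium were present for 9 of 9 genes, with a summed level of 904 to 952 RPKM over the libraries. Of these markers 2 fell with shCENPA1, and 4 fell and 2 rose with shCENPA2. Over all genes, 4.45% fell with shCENPA1, and 10.5% fell and 8.05% rose with shCENPA2. In contrast, 0 of 3 basal markers, 0 of 3 endothelial markers and 0 of the 3 leukocyte markers PTPRC, CD3E and CD68 were in the table. Of 5 fibroblast markers 3 were listed, at a summed 3.55 to 3.95 RPKM in the shNT and shCENPA1 libraries and 5.86 and 5.98 RPKM with shCENPA2. Of 3 neuroendocrine markers 2 were listed, at a summed 22.3 to 28.0 RPKM. Single markers moved within these sums: the fibroblast gene DCN (1.93 and 1.48) and the neuroendocrine gene CHGA (2.06 and 1.76) rose with both shRNAs, the DCN call with shCENPA1 being lost without shCENPA1 library 2 (adjusted p = 0.0595 from limma). The part of these markers in the results below was not tested.

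GALNT14 was nearly silent with shNT and was detected at a low level in every knockdown library. It was counted 25 and 48 times in the control libraries, against 175 and 191 reads for shCENPA1 and 234 and 314 reads for shCENPA2. Its level in log2 RPKM, the logarithm of reads scaled to gene length and library size, was -4.56 and -3.07 with shNT, -1.13 and -1.37 with shCENPA1, and -0.76 and -1.03 with shCENPA2. All 4 knockdown libraries thus lay above both shNT libraries. As linear levels, the shNT libraries held 0.0483 and 0.119 RPKM, the shCENPA1 libraries 0.456 and 0.386 RPKM, and the shCENPA2 libraries 0.592 and 0.489 RPKM. The mean log2 difference from shNT was 2.56 with shCENPA1 and 2.92 with shCENPA2, and the ratio of mean RPKM was 5.04 and 6.47. In bulk RNA, more cells that carry this mRNA and more of it per cell cannot be told apart.

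The shNT libraries set the size of that difference. They were 1.49 apart on the log2 scale, a wider gap than for 99.95% of all genes tested, and the lower one, library 1, rested on 6 and 19 reads in its lanes. Without shNT library 1 the log2 differences were 1.82 and 2.17 with shCENPA1 and shCENPA2, and without shNT library 2 they were 3.31 and 3.66. Adding 1 RPKM before the logarithm brought them to 0.39 and 0.51. GALNT14 was also in the table, and among the genes tested, through the knockdown libraries alone. Every gene in the table reached at least 1.01 CPM (reads scaled to the size of the library) in 3 runs, GALNT14 had 0.109 to 0.619 CPM in the shNT runs and 1.77 to 3.06 CPM in the knockdown runs, and its mean log2 RPKM with shNT, -3.81, was under the minimum mean of -3. Between the CENPA shRNAs, GALNT14 was 0.35 higher on the log2 scale with shCENPA2. The gene shares 42 of its 4344 exonic bases with an annotated gene on the opposite strand, and how strand was treated in counting is not given in the sources used here.

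**Figure D1:**
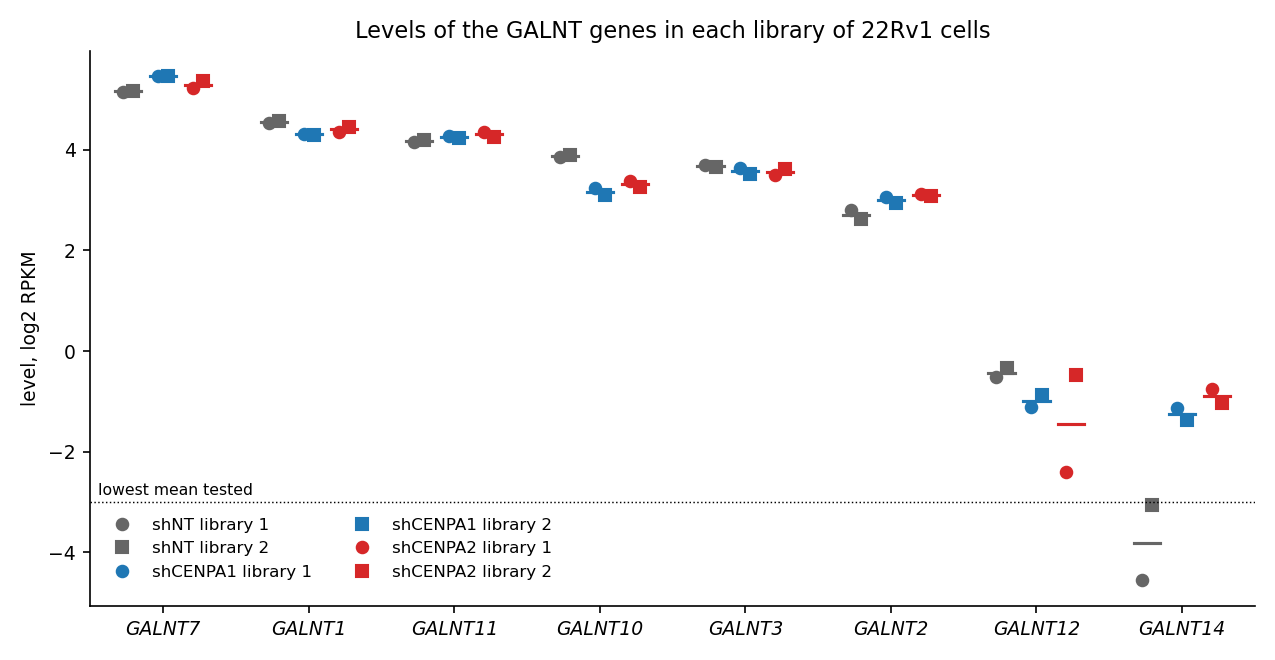
Levels of the 8 GALNT genes in each of the 6 libraries, in log2 RPKM, ordered by their mean level with shNT. Points are libraries (mean of 2 lanes), short lines are group means, and the dotted line is the minimum mean of -3. GALNT14 lies below the other members with shNT (-4.56 and -3.07) and near GALNT12 after knockdown.

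GALNT10 and GALNT7 are follow-up enzymes, which extend patches of glycosylation on peptides already started. GALNT10 fell with both shRNAs, whereas GALNT7 did not pass in either comparison. The level of GALNT10 was 3.86 and 3.89 log2 RPKM with shNT, 3.23 and 3.09 with shCENPA1, and 3.37 and 3.27 with shCENPA2. Every knockdown library was below both shNT libraries, by more than the spread within any group. The log2 fold change was -0.71 (SE 0.098, adjusted p = 0.00238 from limma) with shCENPA1 and -0.55 (SE 0.098, adjusted p = 0.00426) with shCENPA2, and the mean RPKM fell by 38.8% and 31.8%. It passed under each of the 15 alternative settings in both comparisons, and 4.13% of all genes fell with both shRNAs. GALNT10 shares 121 of 10496 exonic bases with MFAP3 on the same strand and 292 with SAP30L-AS1 on the opposite strand. GALNT7, the most abundant member, stood at 5.15 and 5.17 log2 RPKM with shNT, 5.47 and 5.46 with shCENPA1, and 5.23 and 5.36 with shCENPA2. These libraries did not overlap with shNT, yet the log2 fold changes of 0.30 (adjusted p = 0.0733) and 0.13 (adjusted p = 0.327) did not pass, with 95% confidence intervals of 0.11 to 0.50 and -0.06 to 0.33.

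Among the enzymes that act on bare peptides, GALNT2 rose with shCENPA2. GALNT2, one of the broadest initiators, was measured at 2.80 and 2.62 log2 RPKM with shNT, 3.05 and 2.95 with shCENPA1, and 3.12 and 3.08 with shCENPA2. All 4 knockdown libraries were above both shNT libraries. The log2 fold change was 0.39 (SE 0.107, adjusted p = 0.0341 from limma) with shCENPA2, and it was 0.29 (SE 0.107, adjusted p = 0.149) with shCENPA1, which did not pass. The call with shCENPA2 needed all 4 libraries of that comparison: the adjusted p was 0.0924 without shNT library 1, 0.354 without shNT library 2, 0.0919 without shCENPA2 library 1 and 0.0654 without shCENPA2 library 2, with log2 fold changes of 0.30 to 0.47. GALNT2 shares 1029 of its 7712 exonic bases with a gene annotated on the opposite strand.

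GALNT1, the other broad initiator, had 4.54 and 4.57 log2 RPKM with shNT, 4.31 and 4.30 with shCENPA1, and 4.36 and 4.45 with shCENPA2. Its knockdown libraries lay below both shNT libraries, and the log2 fold changes of -0.25 (adjusted p = 0.126) and -0.15 (adjusted p = 0.265) did not pass. GALNT3, which protects the phosphate hormone FGF23 from cleavage, had 3.70 and 3.66 log2 RPKM with shNT, 3.63 and 3.52 with shCENPA1, and 3.50 and 3.62 with shCENPA2. GALNT11 had 4.15 and 4.19 log2 RPKM with shNT, 4.26 and 4.23 with shCENPA1, and 4.36 and 4.26 with shCENPA2. Neither passed: the log2 fold changes with shCENPA1 and shCENPA2 were -0.10 and -0.12 for GALNT3 (adjusted p = 0.582 and 0.427) and 0.08 and 0.14 for GALNT11 (adjusted p = 0.650 and 0.313). The 95% confidence intervals of these 3 genes stayed between -0.44 and 0.33 in both comparisons. That of GALNT1 with shCENPA1 was negative throughout, from -0.44 to -0.06, and the others took in both signs.

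GALNT12, an enzyme best known from the colon, was the other weakly expressed member, and its shCENPA2 libraries disagreed. Reads on GALNT12 were 239 and 212 with shNT, 118 and 178 with shCENPA1, and 49 and 303 with shCENPA2. The levels were -0.52 and -0.33 log2 RPKM with shNT, -1.10 and -0.88 with shCENPA1, and -2.41 and -0.48 with shCENPA2. Both shCENPA1 libraries were below both shNT libraries, whereas shCENPA2 library 2 lay between the shNT libraries and library 1 lay below every other library. The gap of 1.92 between the shCENPA2 libraries was wider than for 99.7% of all genes tested. GALNT12 shares 662 of its 3166 exonic bases with an annotated gene on the opposite strand, and GALNT7 and GALNT11 have smaller opposite-strand overlaps. The log2 fold changes of GALNT12, -0.57 (adjusted p = 0.555) and -1.02 (adjusted p = 0.198), did not pass. Without shCENPA2 library 1 the second value was -0.06 (adjusted p = 0.895), and without shCENPA2 library 2 it was -1.98 (adjusted p = 0.00237), so that 1 library decided it.

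**Figure D2:**
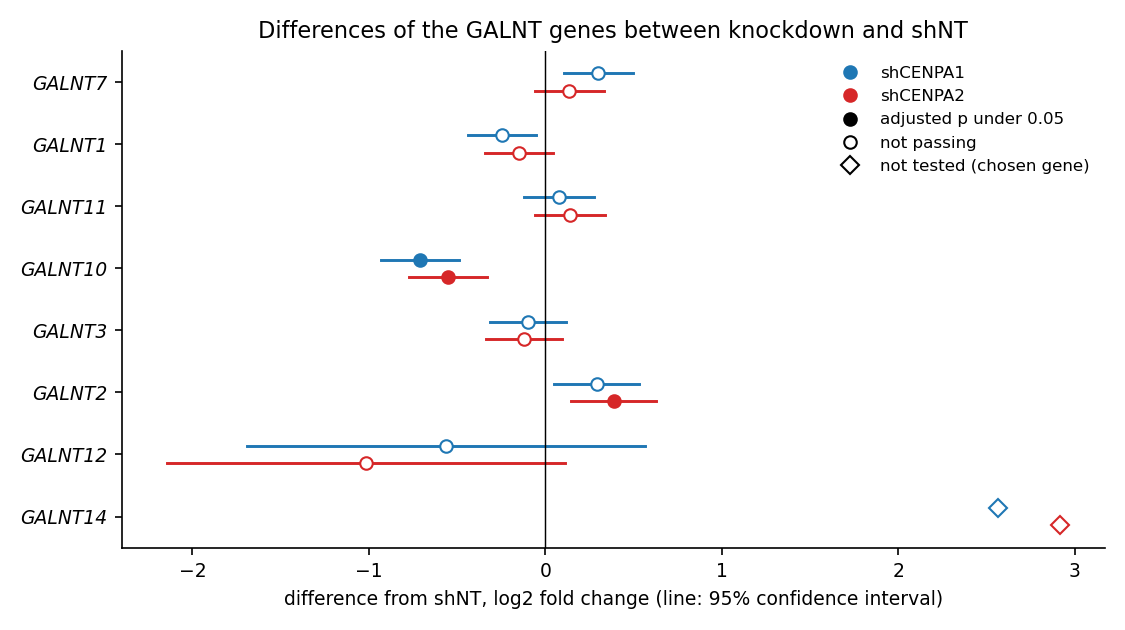
Log2 fold changes of the 8 GALNT genes with shCENPA1 and shCENPA2 relative to shNT. Circles are estimates with their 95% confidence intervals from limma, filled where the adjusted p was under 0.05, and diamonds are the values of GALNT14, which chose the set and was not tested. GALNT10 passed with both shRNAs (-0.71 and -0.55) and GALNT2 with shCENPA2 (0.39).

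Counted over the 7 members that were tested, 1 fell and 0 rose with shCENPA1, where 4.45% of all genes fell and 2.69% rose. At an unadjusted p under 0.05, 2 of the 7 were lower (GALNT1 and GALNT10) and 2 were higher (GALNT2 and GALNT7). The share of all genes at that unadjusted threshold is not given here, so this count and those at the same threshold below are not read as results. With shCENPA1, limma's voom on recovered reads called GALNT10 alone of the 7, and 1381 of all genes tested. With shCENPA2, 1 of the 7 fell and 1 rose, against 10.5% and 8.05% of all genes. Over so few genes, nothing particular to the family is read from these counts. The median log2 fold change of the 7 genes was -0.10 with shCENPA1 and -0.12 with shCENPA2, beside 0.00 and 0.01 over all genes tested. Of the 7, GALNT2, GALNT7 and GALNT11 had all 4 knockdown libraries above both shNT libraries and GALNT1, GALNT3 and GALNT10 had them below, where 20.3% of all genes were above and 20.5% below. The controls are shared between the comparisons, and a low or high shNT library therefore moves both.

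Between the CENPA shRNAs, 0 of the 7 members passed (limma; 1.42% of all genes did), 0 had an unadjusted p under 0.05 and 0 passed with voom. The log2 difference of shCENPA2 from shCENPA1 was 0.16 for GALNT10 (95% confidence interval -0.07 to 0.38), 0.10 for GALNT2 (-0.15 to 0.34) and -0.17 for GALNT7 (-0.36 to 0.03). For GALNT12 the interval ran from -1.58 to 0.67. The intervals of the 6 abundant members leave room for differences of up to 0.38 in size, so the shRNAs are not shown to act alike on them.

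The summed level of the GALNT mRNAs barely moved. Over the 8 genes it was 112.2 ± 0.60 RPKM (SD, n = 2) with shNT, 112.7 ± 2.1 with shCENPA1 and 111.7 ± 2.9 with shCENPA2, and single libraries ran from 109.7 to 114.2 RPKM. The differences from shNT, 0.57 and -0.45 RPKM, were smaller than the SD of every group that was compared. With shNT, GALNT7 held 31.9% of the sum, GALNT1 20.9%, GALNT11 16.1%, GALNT10 13.1%, GALNT3 11.4%, GALNT2 5.85%, GALNT12 0.665% and GALNT14 0.0743%. After knockdown, GALNT7 held 39.1% with shCENPA1 and 35.2% with shCENPA2, and GALNT10 held 7.95% and 8.95%. GALNT14 reached 0.373% and 0.485%.

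On the linear scale, GALNT14, the member that chose the set, gained 0.337 RPKM with shCENPA1 and 0.457 RPKM with shCENPA2, while GALNT10 fell by 5.68 RPKM with shCENPA1 and fell by 4.66 RPKM with shCENPA2, which is 16.8 and 10.2 times as much. GALNT14 lay above 0.0547% of the genes tested with shNT, above 7.04% with shCENPA1 and above 9.81% with shCENPA2, whereas GALNT7 lay above 92.2% with shNT. The order of the members by mean RPKM with shNT was GALNT7, GALNT1, GALNT11, GALNT10, GALNT3, GALNT2, GALNT12 and GALNT14. GALNT10 dropped below GALNT3 in both knockdown groups, and the libraries of these neighbours did not overlap in any group. GALNT14 came above GALNT12 in the shCENPA2 mean only, at 0.540 ± 0.073 against 0.451 ± 0.37 RPKM (SD, n = 2), and their libraries overlapped. With shCENPA1, GALNT12 and GALNT14 had 0.505 ± 0.056 and 0.421 ± 0.049 RPKM, and in library 1 they were 0.465 and 0.456 RPKM, closer together than the libraries of either gene. GALNT1 and GALNT11 also overlapped with shCENPA2, at 20.5 and 21.9 RPKM against 20.5 and 19.2 RPKM.

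**Figure D3:**
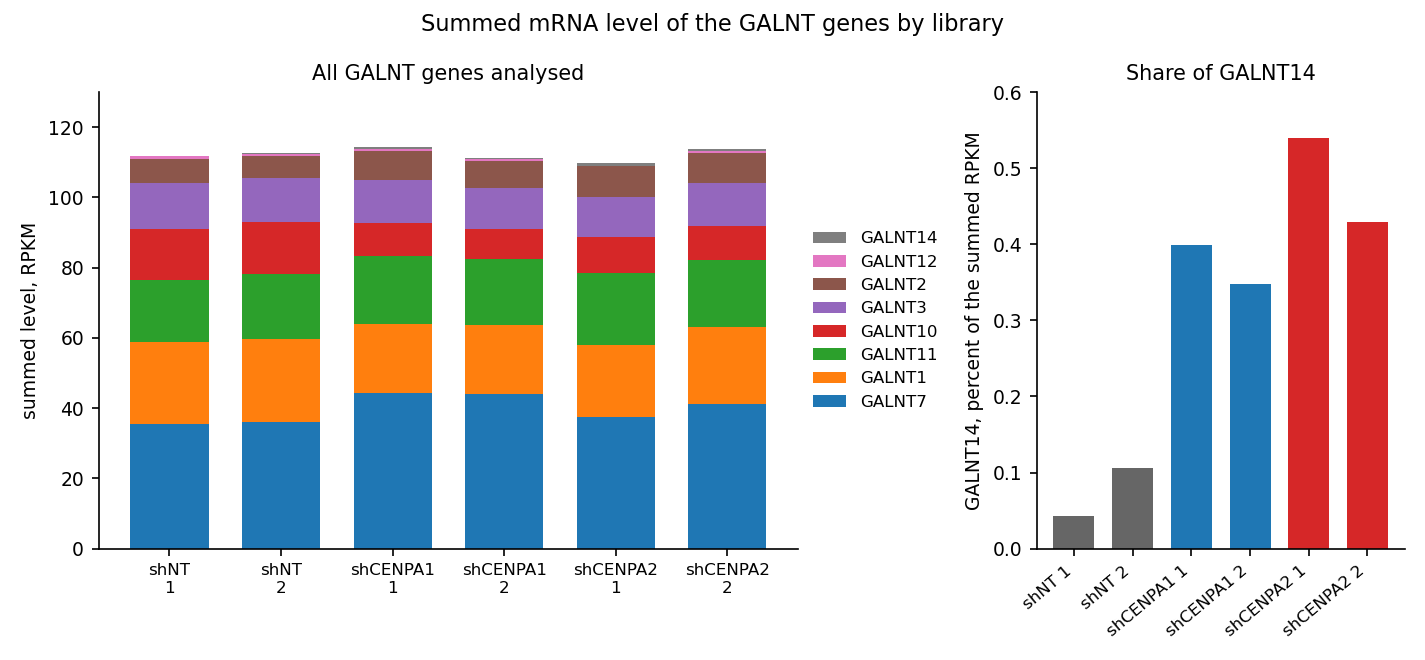
Left, RPKM of the 8 GALNT genes stacked for each library. Right, GALNT14 as a percentage of that sum. The sum stays between 109.7 and 114.2 RPKM in all 6 libraries, while GALNT14 goes from 0.0432% and 0.105% with shNT to 0.347% to 0.540% in the knockdown libraries.

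The other genes of the pathway were taken from lists written from general knowledge. Of the remaining GALNT relatives, GALNT8, GALNT13, GALNT16 and GALNT18 were in the table and tested. With shCENPA1 0 of these 4 passed, by limma, by voom or at an unadjusted p under 0.05. With shCENPA2, GALNT18 alone passed, with a log2 fold change of -0.53 (adjusted p = 0.0477 from limma), and it lost the call with any 1 of the 6 libraries left out. GALNT13, the neuronal relative of GALNT1, had 75 to 104 reads in the shNT and shCENPA1 libraries and 136 and 223 with shCENPA2, and its log2 fold change of 0.93 with shCENPA2 had an adjusted p of 0.0621 (voom passed it).

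Of 11 genes that make or transport UDP-GalNAc, 0 passed with shCENPA1 by limma or voom, and 1 had an unadjusted p under 0.05. With shCENPA2 1 rose and 1 fell, where 8.05% of all genes rose and 10.5% fell. GFPT1, the rate-limiting enzyme of the hexosamine pathway, rose by 0.41 (adjusted p = 0.0107 from limma). GNPNAT1, an acetyltransferase of the same pathway, fell by 0.35 (adjusted p = 0.0419). Over the alternatives the log2 fold change with shCENPA2 stayed at 0.39 to 0.44 for GFPT1 and at -0.49 to -0.22 for GNPNAT1. Both calls were lost in some fits that left out 1 library. That of GFPT1 was lost without shNT library 1 (adjusted p = 0.121) or shNT library 2 (0.0868), and that of GNPNAT1 without any 1 library other than shCENPA2 library 2, with an adjusted p of up to 0.252. Of the 4 tested genes that extend the first GalNAc, C1GALT1 with its chaperone C1GALT1C1 and the branching enzyme GCNT1 did not pass in any comparison. B3GNT3 passed with shCENPA2 alone at -1.31 (adjusted p = 0.0467), where its libraries had 93 and 438 reads. Both of its shCENPA1 libraries also lay below both shNT libraries, at a log2 fold change of -0.75 (adjusted p = 0.307 from limma). The difference between the CENPA shRNAs did not pass (-0.56, adjusted p = 0.594). Without shCENPA2 library 1 the log2 fold change of B3GNT3 with shCENPA2 was -0.54 and the call was lost. That call was also lost without either shNT or either shCENPA1 library. The named genes of this paragraph outside the GALNT family were chosen after their values were seen.

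Of 7 tested sialyltransferases that cap the sugar, 1 rose and 1 fell with shCENPA1, and 1 rose and 1 fell with shCENPA2. Over all genes, 2.69% rose and 4.45% fell with shCENPA1, and 8.05% rose and 10.5% fell with shCENPA2. Nothing particular to this list is read from the counts. ST6GALNAC5, known mainly for acting on gangliosides, fell with both shRNAs. It had 2.33 and 2.23 log2 RPKM with shNT, 1.59 and 1.49 with shCENPA1, and 1.48 and 1.52 with shCENPA2, all 4 knockdown libraries below both shNT libraries. The log2 fold changes were -0.74 (adjusted p = 0.00673 from limma) and -0.78 (adjusted p = 0.00223), and the first rose to an adjusted p of 0.0880 without shNT library 1 and 0.0582 without shCENPA1 library 2. ST3GAL1 and ST6GALNAC4, named after their values were seen, each passed in 1 comparison and had all 4 knockdown libraries above both shNT libraries. ST3GAL1, which caps core 1, passed with shCENPA1 (0.42, adjusted p = 0.0219) and lost the call with any 1 of the 4 libraries of that comparison left out, and its value with shCENPA2 was 0.27 (adjusted p = 0.0669). ST6GALNAC4 passed with shCENPA2 (0.98, adjusted p = 0.00133), and its value with shCENPA1 was 0.53 (adjusted p = 0.0552). The difference between the shRNAs did not pass for either gene (adjusted p = 0.517 for ST3GAL1 and 0.191 for ST6GALNAC4).

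Among proteins that GALNT enzymes modify, TNFRSF10B rose with both shRNAs. TNFRSF10B, the TRAIL receptor also called DR5, had 4.14 and 4.11 log2 RPKM with shNT, 4.75 and 4.70 with shCENPA1, and 4.92 and 4.91 with shCENPA2. Its log2 fold changes were 0.60 (SE 0.083, adjusted p = 0.00229 from limma) and 0.79 (SE 0.083, adjusted p = 0.000225). All 4 knockdown libraries lay above both shNT libraries, and the gene passed under each of the 15 alternatives. Over all genes, 2.37% rose with both shRNAs, 2.69% rose and 4.45% fell with shCENPA1, and 8.05% rose and 10.5% fell with shCENPA2. Of the 9 such substrates reported here, 1 rose and 0 fell by limma with shCENPA1 (LRP8 was lower at an unadjusted p under 0.05 and passed with voom), and 1 rose and 1 fell with shCENPA2. The latter was LRP8 at -0.82 (adjusted p = 0.0233), which lost the call without shNT library 1 (0.0848), shNT library 2 (0.146) or shCENPA2 library 2 (0.0799). TNFRSF10A, the other TRAIL receptor in this list, did not pass (0.13 and 0.20, adjusted p = 0.504 and 0.210 from limma).

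Of the mucins only MUC1, MUC3A and MUC13 were in the table, and MUC3A was under the filter on low values. MUC13, a membrane mucin, fell with shCENPA2, from 3.58 and 3.59 log2 RPKM with shNT to 2.55 and 2.75 (log2 fold change -0.93, adjusted p = 0.000331 from limma), while the shCENPA1 libraries at 3.34 and 3.40 gave -0.21 (adjusted p = 0.273). MUC1 rested on 47 to 135 reads and its values of -0.89 and -0.50 did not pass. The 14 tested genes that start other kinds of O-glycans, such as OGT and the POFUT and POMT genes, had 0 calls against shNT in either comparison by limma. At an unadjusted p under 0.05 there were 2 with shCENPA1 and 5 with shCENPA2. Voom called 2 in each, where it called 1381 and 3173 of the 14624 genes tested, and nothing particular to this list is read from these counts. The median log2 fold change of that list was -0.02 with shCENPA1 and 0.03 with shCENPA2.

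**Figure D4:**
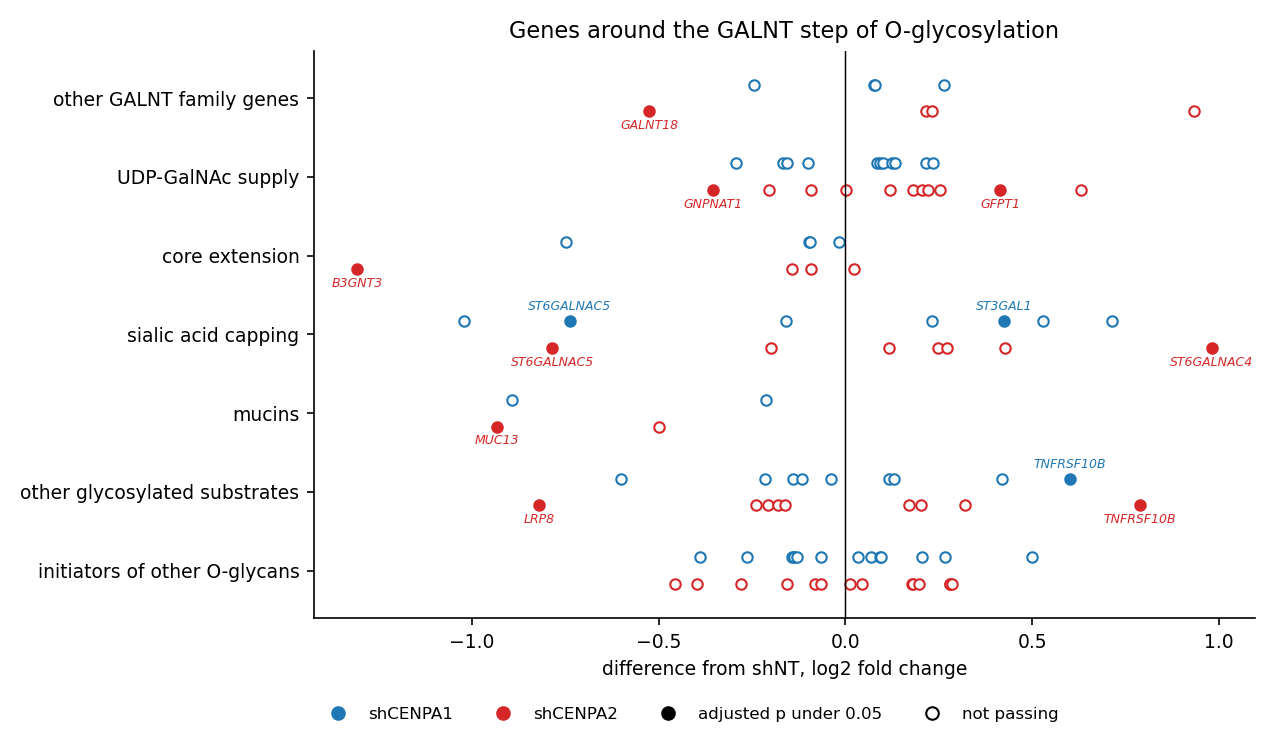
Log2 fold changes relative to shNT of the tested genes in 7 lists around the GALNT step, with shCENPA1 above and shCENPA2 below in each row. Filled points passed an adjusted p of 0.05 and carry the gene symbol. TNFRSF10B (0.60 and 0.79) and ST6GALNAC5 (-0.74 and -0.78) passed with both shRNAs.

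The genes whose profile was most like that of GALNT14 were found over all genes tested, by the root mean square difference of log2 RPKM after each gene was centred on its mean over the 6 libraries. They were KCNG1 (0.449), ZNF204P (0.478), FOXD3 (0.497), LINC00327 (0.588) and WNT11 (0.588), chosen for this pattern and given without a test. KCNG1 encodes a potassium channel subunit, FOXD3 a forkhead transcription factor and WNT11 a secreted Wnt ligand. KCNG1, the closest, had 0.145 and 0.148 RPKM with shNT, 0.834 and 0.848 with shCENPA1, and 0.955 and 1.04 with shCENPA2. In the shNT libraries all 5 lay between 0.0736 and 0.222 RPKM, and being lower there than after knockdown follows from the choice. With 25 to 85 reads per shNT library, they stayed under the 1.01 CPM that every gene in the table reached in 3 runs. They were thus in the table through the knockdown libraries, as GALNT14 was. LINC00327 had a mean of -3.60 log2 RPKM with shNT, under the minimum mean of -3. No other GALNT member was near: the next, GALNT2, ranked 1693 by this measure, and GALNT10 and GALNT12 ranked 13406 and 14126.

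The nearest tested genes with a matched symbol on each side of GALNT14 on chromosome 2 did not pass. LCLAT1, an acyltransferase of cardiolipin remodelling, ends 266242 bp before GALNT14 and had 3.62 and 3.37 RPKM with shNT, 4.04 and 3.53 with shCENPA1, and 4.18 and 4.34 with shCENPA2. EHD3, an endosomal trafficking gene that begins 78950 bp after it, had 0.576 and 0.605 RPKM with shNT, 0.602 and 0.799 with shCENPA1, and 0.900 and 0.824 with shCENPA2. Their log2 fold changes were 0.11 and 0.29 for LCLAT1 (adjusted p = 0.643 and 0.152 from limma) and 0.23 and 0.54 for EHD3 (adjusted p = 0.582 and 0.119).

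**Figure D5:**
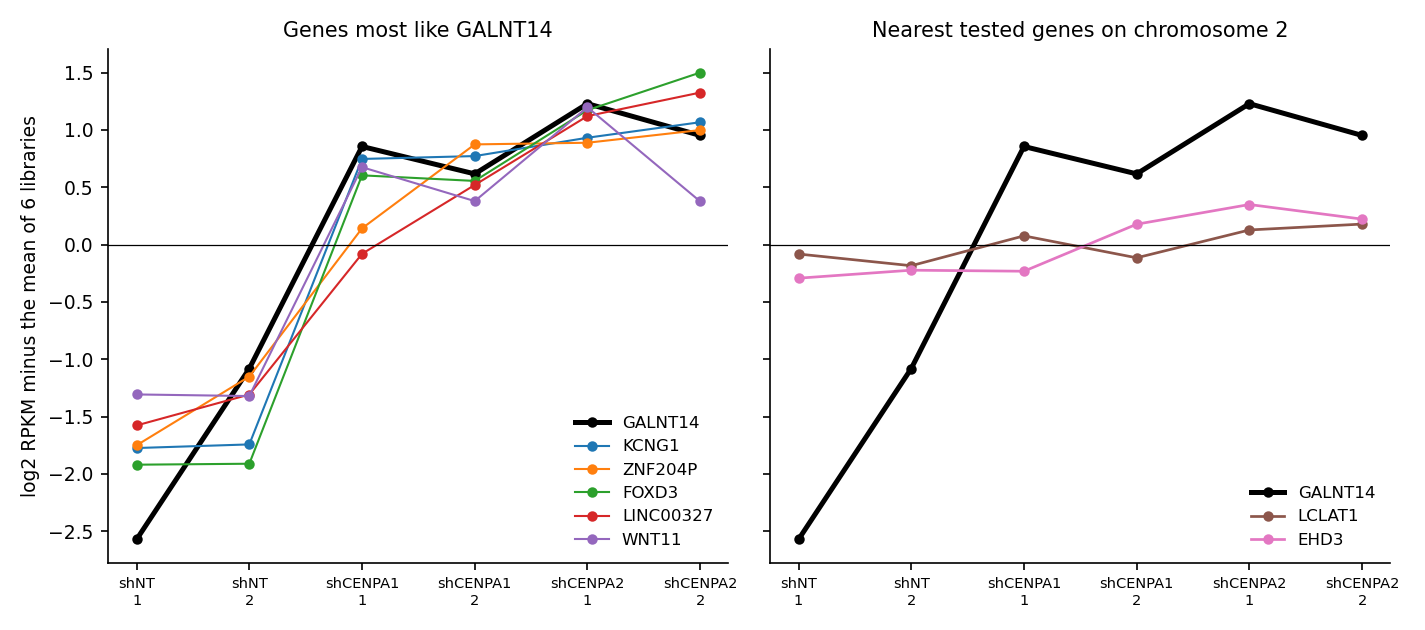
Log2 RPKM minus the mean over the 6 libraries for GALNT14 with the 5 genes most like it (left) and with its nearest tested neighbours on chromosome 2 (right). Lines join the values of one gene across libraries that have no order within a group. The 5 similar genes were chosen for this pattern, so their low values in both shNT libraries follow from the choice. LCLAT1 and EHD3 vary less than GALNT14.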

How the data were processed

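The libraries were strand-specific and made from mRNA. The authors used Trim Galore for trimming, STAR for alignment (hg38) and HTSeq for counting reads on genes, and the deposited table gives log2 RPKM for each of 12 runs. By the study's methods they called genes with edgeR, and versions are not given in the sources used here. The deposited log2 values hold a prior of 0.25 reads at the mean library size. The spacing of the values gave back integer reads for 14828 of 14828 genes (largest distance from a whole read 2.8e-08), and linear RPKM was computed from them without the prior. The 12 runs were averaged on the log2 scale to 6 libraries, since lanes of a library differed by little more than sampling noise.

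The model was limma 3.58.1 in R 4.3.3 with a trend in the variance, 3 groups and no covariate, and it took in the 14624 genes whose log2 RPKM averaged -3 or more. Passing meant an adjusted p under 0.05 (Benjamini-Hochberg over all genes tested), and no constant was added beyond the prior. This stands in for the authors' count test, and the deposited values hold no counts as such. The smallest two-sided p that exact permutation allows for 1 gene at 2 against 2 is 0.333, so calls rest on limma's pooling of the variance over genes. The filter and the prior weigh most on weakly expressed genes. On simulated reads for 14624 genes, the fit recovered 173 and 174 of 200 changed genes with shCENPA1 and shCENPA2. It also called 14 and 18 others. The size of the differences put into those reads is not given here. Nothing is therefore read from these counts about calls of the size found for GALNT10 and GALNT2.

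The members and gene lists were chosen with earlier results of these data known. Named genes were the members, CENPA, list genes passing with the same sign in both comparisons with shNT, the 5 genes most like GALNT14 and its nearest tested gene on each side, and other names were chosen after their values were seen. Alternatives were lanes as replicates, a block for the library number, other filters on low values, 0.1 or 1 added to RPKM, quantile-normalized libraries, voom on recovered reads with TMM scaling factors, and each library left out in turn. Crossed library numbers in the block, shares from the deposited values with the prior, and the alternatives for genes outside the family were added after seeing the data. Positions are from GENCODE 44, where 13068 (88.1%) of the gene symbols matched, and promoters from RefSeq, where 8 of 9 members were used. The ChIP-seq data of the study were not used here. Of the marker and substrate lists, 2 genes are not reported here.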

Additional observations from a re-analysis of the deposited data

Results flagged for a closer look

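MUC13, TMTC1, LUM and CENPA differed between the CENPA shRNAs in the test of that difference, while 0 of the 7 tested GALNT members did. MUC13 was lower with shCENPA2 than with shCENPA1 by a log2 difference of -0.72 (adjusted p = 0.0118 from limma), with 10.1 and 10.6 RPKM against 5.86 and 6.74 RPKM, and the call was lost without either shCENPA1 library (adjusted p of up to 0.161). TMTC1, which starts O-mannose glycans, differed by -0.95 (adjusted p = 0.0490), with 1.60 and 1.28 RPKM against 0.714 and 0.765 RPKM, and it lost the call with any 1 of the 6 libraries left out. LUM, from the fibroblast marker list, differed by 1.15 (adjusted p = 0.00357), with 2.07 and 1.95 RPKM against 4.35 and 4.57 RPKM, and lost the call without shCENPA1 library 2 (adjusted p = 0.0667). CENPA differed by -0.98 (adjusted p = 0.0209), with 1.42 and 1.5 RPKM against 0.718 and 0.753 RPKM, and lost the call with 1 RPKM added, with voom, or without shCENPA1 library 1, shCENPA1 library 2 or shCENPA2 library 2 (adjusted p of up to 0.212). The deeper knockdown was thus that of shCENPA2, and its part in the results for the GALNT genes was not tested.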

How the results depend on the processing

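Over the alternatives, GALNT10 fell in both comparisons with shNT (log2 fold change -0.78 to -0.64 with shCENPA1 and -0.61 to -0.50 with shCENPA2) and passed in each. The number of genes passing was 1044 with shCENPA1, 2712 with shCENPA2 and 208 between the CENPA shRNAs. With each lane as a replicate it was 5405, 7089 and 3319, a setting in which GALNT1, GALNT2 and GALNT7 also passed with shCENPA1 and GALNT1, GALNT3, GALNT7 and GALNT11 with shCENPA2, and lanes repeat a library. With voom 343 genes passed between the CENPA shRNAs. Leaving out 1 library at a time gave 397 to 1403, 1360 to 2596 and 28 to 372 genes, where the lone library of a group is assumed to vary like the others, and fewer samples were tested. The share of GALNT14 in the summed RPKM was 0.0743%, 0.373% and 0.485% with shNT, shCENPA1 and shCENPA2, against 0.162%, 0.459% and 0.570% with 0.1 added to each RPKM and 0.902%, 1.18% and 1.29% with 1 added, which follows from adding the same amount to every member. Voom was not run for this share, which does not depend on library scaling. The log2 difference of GALNT14 from shNT ran from 1.54 to 3.31 with shCENPA1 and from 1.83 to 3.66 with shCENPA2 apart from the values with 1 added, and none reversed. With a minimum mean of 0, GALNT12 and GALNT14 were not among the genes tested.

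Samples with the same library number did not deviate together (correlations of -0.064, -0.095 and -0.145 between the library differences of shNT and shCENPA1, shNT and shCENPA2, and shCENPA1 and shCENPA2), so the numbers were not used as a pairing. With a block for the number, 868, 2375 and 160 genes passed, and GALNT10 and GALNT2 kept the calls reported for them, while GALNT18 (adjusted p = 0.0801) and GNPNAT1 (0.0532) with shCENPA2 and TMTC1 between the CENPA shRNAs (0.0758) lost theirs. With the numbers of shCENPA2 crossed in that block, 1235, 2853 and 389 passed, and GALNT18 lost its call (adjusted p = 0.0543). Weak members are limited by reads as well as by libraries, since GALNT14 had 25 and 48 reads with shNT.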
